A study of Ambystoma mexicanum with 12 samples.

Results

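Genes of the developmental transcription factor families were followed in axolotl limbs and in the blastema, the mound of undifferentiated cells that forms on an amputated limb. The set holds 14 of the 99088 genes counted. They are the identifiers to which the list of blastema genes of the study gives a name of the SOX, HOX, TBX, PAX, MYF, MSX, LHX, FOX, KLF, TWIST, HES, IRX, ZIC or related families, and 3 further genes of these families on that list were left out. The list itself, with 1114 identifiers in the part used, had been chosen for a difference between blastemas and juvenile limbs in these libraries and in those of another study. The differences between blastemas and juvenile limbs below are therefore a description and carry no test. The aged limbs played no part in that choice, although they are compared with the same juvenile limbs.

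RNA was sequenced from the limbs of 5 juvenile axolotls aged 8 months, from 5 blastemas that juvenile axolotls had grown by day 10 after amputation, and from the limbs of 2 aged axolotls aged 8 years, which formed no blastema. The animals came from a captive colony founded with wild axolotls of Lake Xochimilco, they were sedated with benzocaine before amputation, and no genetic change is named for any group. The juvenile limbs and the blastemas both carry the numbers 2, 3, 5, 6 and 8, and values are listed in that order. The study describes amputating limbs of 5 juvenile axolotls and using the removed tissue as the control. Blastemas were collected 10 days later, so the design reads as limb and blastema from the same animals. That a number marks 1 animal is not stated outright in the sources used here. The main fits did not pair libraries by it, and a fit with the number as a block is among the alternatives. The labels name the posterior leg, the methods the inferior limbs and the results the right forelimb, so the limb that was taken is not settled. Levels are CPM, the counts of a gene brought to a common library size, and as they are not divided by gene length they do not rank genes against each other.

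The proteins of these families bind DNA and set which genes a cell uses. In the vertebrate limb bud, homeobox genes such as MSX and LHX and the basic helix-loop-helix gene TWIST1 act in growing mesenchyme and its signalling ectoderm, whereas the MYF genes drive muscle differentiation. The HES genes are repressors that often respond to Notch signals, the ZIC genes are zinc finger genes best known from the neural tube and neural crest, and the IRX and TBX genes pattern many organs. In salamanders, limb muscle next to the amputation plane breaks down while the blastema grows.

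Libraries held between 12975883 and 20663627 counts. The summed level of 17 skeletal muscle marker genes was 68.1 to 103 CPM in blastemas, 4909 to 25159 CPM in juvenile limbs, and 9135 and 1339 CPM in the aged limbs, and 1 of the 17 markers had no count in any blastema. PYGM alone averaged 77.7 ± 13.7 CPM in the blastemas (mean ± SD), where the next highest marker, DES, averaged 3.62 CPM. The blastema sums are therefore mostly the level of PYGM. The sums of 7 keratinocyte markers were 1862 to 4682 CPM in the blastemas, 5954 to 17130 CPM in the juvenile limbs and 10020 to 10713 CPM in the aged limbs. Those of 4 Schwann cell markers were 8.90 to 16.4, 55.6 to 175, and 56.4 to 57.2 CPM in the same order, and those of 4 bone markers were 1.19 to 5.15, 14.4 to 30.0, and 1.33 to 3.61 CPM. The sums of 9 proliferation markers overlapped between the groups, at 78.5 to 105, 33.7 to 90.5 and 57.2 to 90.1 CPM. Most of the 9 were taken from genes outside the list of blastema genes, which made small differences more likely but did not fix them. PCLAF and ORC6, which are on that list, had log2 fold changes of 1.01 ± 0.32 and 1.20 ± 0.37 (SE) between blastemas and juvenile limbs. The others tested lay between -0.37 and 0.30. Sums of 7 immune cell markers also overlapped, at 50.7 to 119, 77.3 to 127 and 94.6 to 124 CPM. Of the 6 tested, 3 rose and 3 fell in blastemas. MARCO averaged 18.9 CPM in juvenile limbs and 48.5 CPM in blastemas, and GZMB.1 65.9 and 13.5 CPM. The muscle, keratinocyte, Schwann cell, bone and immune cell markers were all taken from the list of blastema genes. Differences of single markers between blastemas and juvenile limbs were largely fixed by that choice and are a description. In bulk tissue, fewer cells of a type and less RNA of a gene in each cell cannot be told apart. The part of tissue makeup in the levels below was not tested.

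Of the 14 genes, 6 had the higher mean level in the blastemas (MSX2, TWIST1, LHX2, ZIC2, ZIC5 and HES1.7) and 8 in the juvenile limbs (MYF6, MYF6.1, KLF15.1, TBX1, IRX1.1, IRX3, IRX5 and HES5.3). All 5 blastemas lay above all 5 juvenile limbs for 3 genes and below them for 7, whereas 3.28% and 7.21% of the 19961 genes tested were separated in these directions. HES1.7, among those above, and IRX1.1, among those below, were not among the genes tested. Only 8 of the 14 passed the filter on low counts. Of these, 2 were higher past the thresholds, a log2 fold change of more than 1 in size with an adjusted p under 0.05, against 1.86% of the genes tested, and 4 were lower past them, against 5.6%. DESeq2, which fitted all 14, put 6 higher and 6 lower past the same thresholds, against 1.05% and 3.14% of the genes it fitted. As the set was chosen on this contrast, these counts are no finding about it.

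MSX2 (AMEX60DD028758), a homeobox repressor known as a target of BMP signals in limb buds, had 2117 counts over the 5 blastemas. Its level was 16.9, 43.9, 20.2, 31.5 and 23.6 CPM in the blastemas. In the juvenile limbs it was 3.41, 6.00, 3.16, 5.36 and 3.41 CPM, and in the aged limbs 1.42 and 2.58 CPM. The 3 groups did not overlap, with the aged limbs lowest and the blastemas highest. The gap between the nearest aged and juvenile limbs, at 2.58 and 3.16 CPM, was within counting error. The fitted log2 fold change was 2.66 ± 0.30 (SE, n = 5 and 5).

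TWIST1 (AMEX60DD022296), which keeps mesenchyme undifferentiated in mammals, had 4.89, 1.103, 1.34, 1.21 and 1.86 CPM in the blastemas. Its levels were 0.790, 0.462, 0.275, 0.431 and 0.257 CPM in the juvenile limbs and 0.578 and 0.709 CPM in the aged limbs. Blastemas and juvenile limbs did not overlap. The fitted log2 fold change was 2.19 ± 0.57 (SE), and 1.65 without blastema 2, whose level stood far above the other 4.

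LHX2 (AMEX60DD050555), a LIM-homeobox gene that responds to signals of the apical ectodermal ridge in chick and mouse limb buds, was uneven among the blastemas. Its level was 5.48, 0.598, 0.551, 1.82 and 4.46 CPM there and 0.247, 0.462, 0.0687, 0.925 and 0.450 CPM in the juvenile limbs. The groups overlapped because blastemas 3 and 5 lay below juvenile limb 6. The aged limbs, at 1.11 and 2.45 CPM, lay above every juvenile limb and within the range of the blastemas. Pooled over the libraries, LHX2 was 5.21-fold higher in blastemas than in juvenile limbs (160 and 38 counts; 95% exact counting interval 3.64 to 7.63, which covers counting error only).

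ZIC2 (AMEX60DD048179) and ZIC5 (AMEX60DD048180) carry consecutive identifiers and are neighbours in the RefSeq annotation of the axolotl as well. ZIC2 had 2.64, 0.230, 0.158, 0.605 and 4.46 CPM in the blastemas, and counts in only 2 of the 5 juvenile limbs, at 0.148 and 0.193 CPM. ZIC5 had 4.89, 0, 1.02, 1.14 and 4.31 CPM in the blastemas, and in the juvenile limbs a single count, in limb 6. In the aged limbs ZIC2 was at 0 and 0.193 CPM and ZIC5 at 0.133 and 0 CPM, which is 3 counts for each gene. Blastemas 2 and 8 were thus the high ones for both genes, and the other 3 blastemas lay closer to the limbs than to those. The pooled ratio of blastemas to juvenile limbs was 21.02 for ZIC2 (102 and 6 counts; interval 9.33 to 58.6) and 168 for ZIC5 (136 counts and 1 count; interval 29.7 to 6691).

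HES1.7 (AMEX60DDU001037208), a copy named after the Notch-responsive repressor HES1, had few counts in any group. In the juvenile limbs it was at 0.296, 0.277, 0.0687, 0.247 and 0.0643 CPM, in the blastemas at 1.08, 0.828, 0.315, 1.44 and 1.04 CPM, and it had 0.711 and 0.193 CPM in the aged limbs. All blastemas were above all juvenile limbs, narrowly so for blastema 5, and the aged limbs were split between the ranges of the other groups. The pooled ratio of blastemas to juvenile limbs was 4.53 (66 and 18 counts; interval 2.66 to 8.12).

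**Figure D1:**
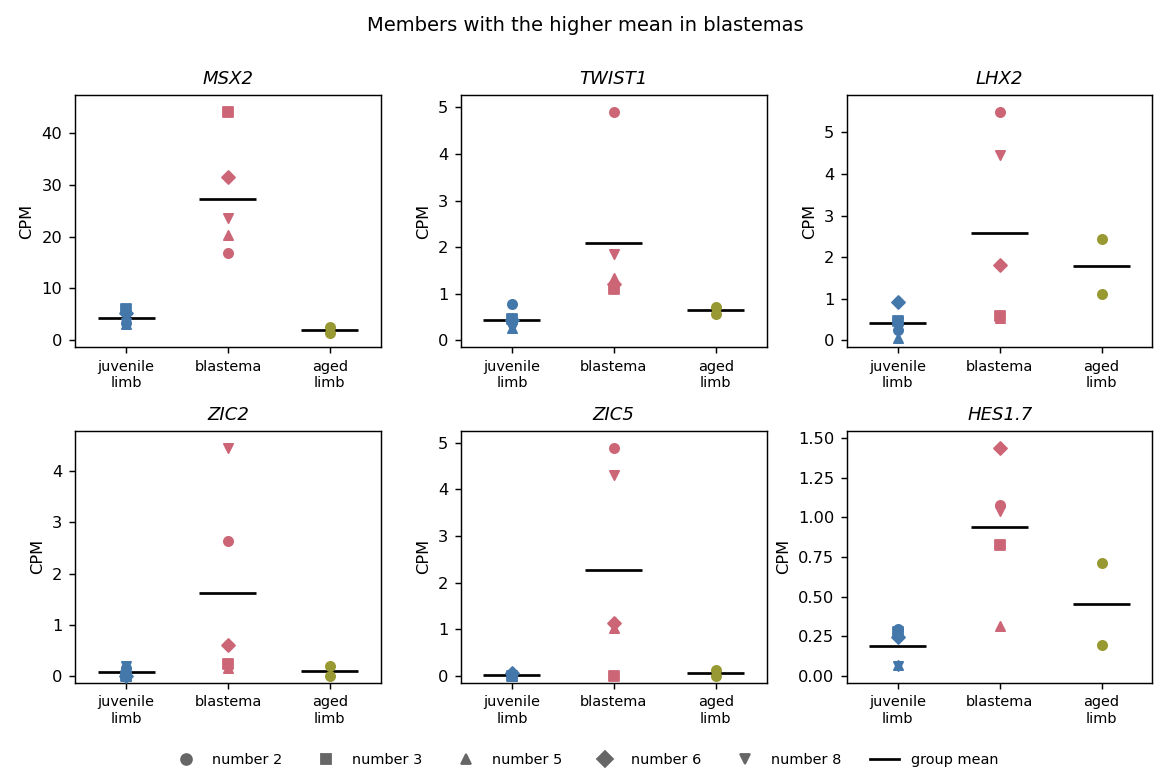
Level (CPM, linear axis) of the 6 genes with the higher mean in blastemas, 1 point per library, with bars for group means and a marker shape for each number of the juvenile limbs and blastemas, with circles for both aged limbs (n = 5 juvenile limbs, 5 blastemas, 2 aged limbs). The MSX2 points of the blastemas lie between 16.9 and 43.9 CPM, above all limbs, whereas the LHX2, ZIC2 and ZIC5 means rest on blastemas 2 and 8.

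The genes of the blastema side did not share an order among the blastemas. Blastemas 2 and 8 made up 33.2% of the scaled library size of the 5 blastemas, yet they held 72.5% of the LHX2 counts, 85.3% of the ZIC2 counts, 79.4% of the ZIC5 counts and 56.8% of the TWIST1 counts. They held 37.9% of the HES1.7 counts and 23.1% of the MSX2 counts. MSX2 was lowest in blastema 2, the one in which TWIST1, LHX2 and ZIC5 were highest. The 5 summed muscle marker levels, which are mostly PYGM, did not follow this order. They were 80.9 and 87.5 CPM in blastemas 2 and 8 and 83.6, 103 and 68.1 CPM in the others. The immune cell marker sums were highest in blastemas 2 and 8, at 77.6 and 119 CPM, against 60.4, 50.7 and 52.0 CPM in the others. For the keratinocyte, Schwann cell, bone and proliferation markers, blastemas 2 and 8 were not the 2 highest. The part of tissue makeup in these differences among blastemas was not tested.

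TBX5 and TBX5.1 (AMEX60DD001050 and AMEX60DD001054), copies of the T-box gene of the forelimb field, had the same high blastemas although they are not on the list of blastema genes. TBX5 was at 13.9, 1.15, 0.551, 1.74 and 6.61 CPM in the blastemas and TBX5.1 at 4.60, 0.920, 0.158, 0.832 and 1.93 CPM. Blastemas 2 and 8 held 80.8% and 68.9% of their blastema counts. Reads shared between the copies could have been counted on either, so the split between them is uncertain, and TBX5 had counts in all 12 libraries.

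**Figure D2:**
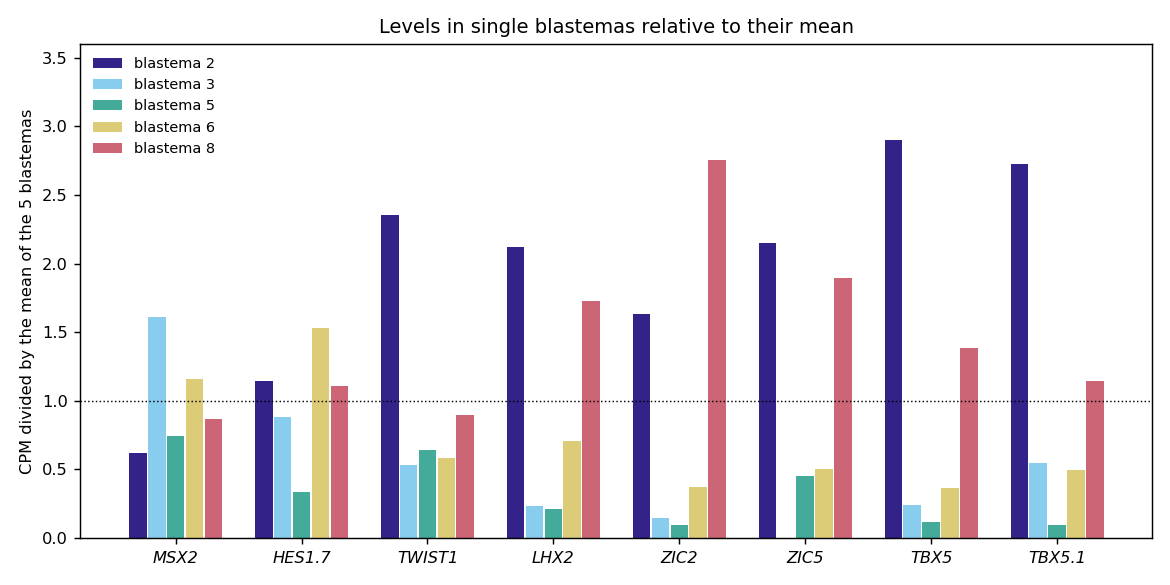
Level of 8 genes in each blastema, divided by the mean of the 5 blastemas (bars, linear axis from 0; the dotted line marks the mean). LHX2, ZIC2, ZIC5, TBX5 and TBX5.1 exceed their mean in blastemas 2 and 8 only, whereas MSX2 does so in blastemas 3 and 6.

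Among the genes of the limb side, the 2 identifiers named MYF6 had no count in any of the 5 blastemas. MYF6, also called MRF4, is the myogenic regulatory factor that stays on in mature muscle fibres of mammals. The RefSeq annotation holds 1 gene of this name, which lies beside MYF5. Whether the 2 identifiers are separate genes or parts of 1 gene is not settled here. As elsewhere in this text, a copy means an identifier with that name. MYF6 (AMEX60DD007642) was at 2.62, 0.785, 3.02, 0.616 and 4.57 CPM in the juvenile limbs and at 1.69 and 0.644 CPM in the aged limbs. MYF6.1 (AMEX60DD007643), the next identifier, was at 4.59, 1.62, 8.11, 1.73 and 7.27 CPM in the juvenile limbs and at 3.47 and 0.0644 CPM in the aged limbs. Both copies were high in juvenile limbs 2, 5 and 8 and low in juvenile limbs 3 and 6, which also had the 2 lowest muscle marker sums of the juvenile limbs. Against a floor of 3 counts over the 5 blastemas (0.0421 CPM), MYF6 was at least 52.6-fold and MYF6.1 at least 104-fold below the juvenile limbs. Per 10000 CPM of muscle markers, MYF6 was between 0.918 and 3.05 CPM in the juvenile limbs and at 1.85 and 4.81 CPM in the aged limbs. MYF6.1 was between 2.57 and 5.35 CPM on this scale in the juvenile limbs and at 3.79 and 0.481 CPM in the aged limbs. Aged limb 2 thus lay above the juvenile limbs for MYF6 and below them for MYF6.1. It had only 10 counts of MYF6 and 1 of MYF6.1, so both of its values on this scale are imprecise. The part of lost muscle in the absence of MYF6 counts from the blastemas was not tested.

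The aged limbs differed in the balance of counts between the identifiers MYF6 and MYF6.1, which may not be separate genes. MYF6.1 gave between 61.4% and 73.7% of the counts of both copies in the juvenile limbs and 67.2% in aged limb 1 (95% exact binomial interval 57.9 to 75.7%). In aged limb 2 it gave 9.09%, 1 count of 11, with an interval of 0.230 to 41.3% that lies below the shares of the other 6 limbs. This rests on 1 library, and reads shared between the copies could shift such shares.

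KLF15.1 (AMEX60DD023451) is a copy named after KLF15, a glucocorticoid-induced regulator of amino acid use in mammalian muscle. It was at 2.37, 1.15, 0.962, 0.925 and 3.41 CPM in the juvenile limbs, at 0, 0.138, 0.394, 0 and 0.669 CPM in the blastemas, and at 0.978 and 2.13 CPM in the aged limbs. The blastemas lay below both groups of limbs, and the fitted log2 fold change between blastemas and juvenile limbs was -2.84 ± 0.86 (SE). Unlike the MYF6 copies, KLF15.1 was higher in aged limb 2 than in aged limb 1. Aged limb 2 had 15.9 CPM of KLF15.1 per 10000 CPM of muscle markers, while the other 6 limbs had between 0.551 and 2.76 CPM. Its KLF15.1 level itself lay within the range of the juvenile limbs, whereas its muscle marker sum, 1339 CPM, lay below theirs. Whether the KLF15.1 RNA came from muscle was not tested.

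**Figure D3:**
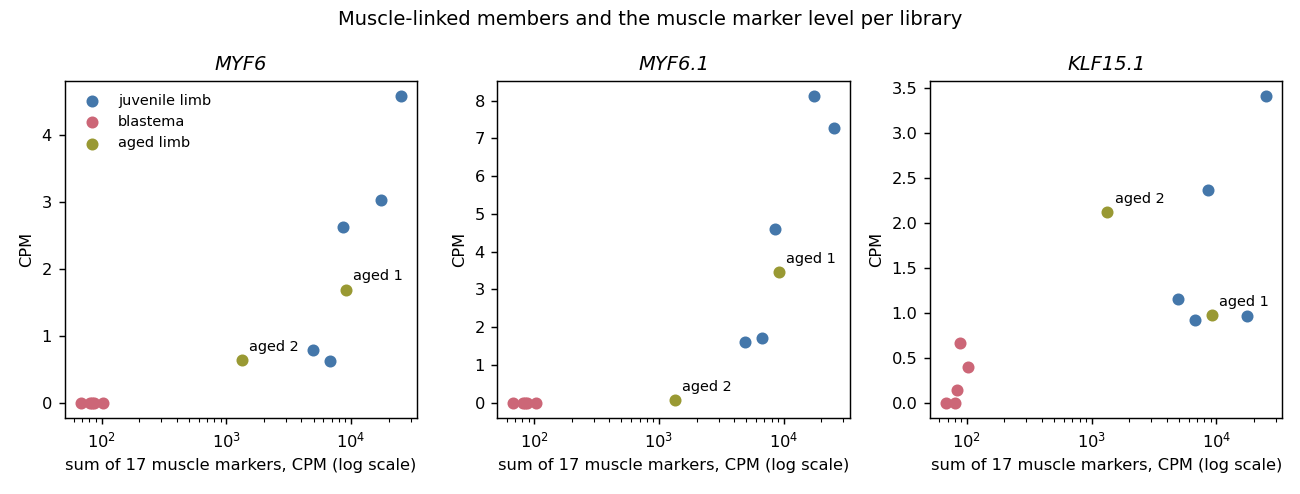
Level of MYF6, MYF6.1 and KLF15.1 (CPM, linear axis) against the summed level of 17 skeletal muscle markers in the same library (CPM, log axis), 1 point per library. The 5 blastemas sit at marker sums of 68.1 to 103 CPM with no MYF6 or MYF6.1 count, and aged limb 2 has a low marker sum with KLF15.1 at 2.13 CPM. The blastema sums are mostly the level of PYGM.

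TBX1 (AMEX60DD000147), a T-box gene best known from the pharyngeal arches and head muscles of mouse embryos, was at 11.2, 6.56, 13.3, 10.2 and 10.4 CPM in the juvenile limbs. It was at 5.09, 1.52, 3.07, 2.12 and 2.16 CPM in the blastemas and at 6.27 and 5.09 CPM in the aged limbs. The 3 groups did not overlap, with the aged limbs between the others. The lower aged limb and the highest blastema, number 2, were level within counting error, both at 5.09 CPM after rounding. The fitted log2 fold change between blastemas and juvenile limbs was -1.91 ± 0.34 (SE).

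The 3 IRX genes, homeobox genes that pattern the limb bud and other organs in mouse, were lower in most blastemas. IRX3 (AMEX60DD017741) was at 8.93, 7.53, 10.6, 8.75 and 8.24 CPM in the juvenile limbs and at 1.66, 5.75, 4.73, 3.63 and 5.87 CPM in the blastemas, and the aged limbs had 8.62 and 6.25 CPM. Blastemas and limbs did not overlap, and the fitted log2 fold change of -1.02 ± 0.30 (SE) moved to -0.78 without blastema 2, the lowest. IRX5 (AMEX60DD017758), the neighbour of IRX3 in the RefSeq annotation, was at 1.33, 1.62, 1.31, 1.36 and 0.450 CPM in the juvenile limbs and at 0.0978, 0.0460, 0.551, 0.227 and 0.595 CPM in the blastemas. Juvenile limb 8 was the only juvenile limb within the range of the blastemas. IRX5 reached 2.53 and 1.74 CPM in the aged limbs, above all juvenile limbs. IRX1.1 (AMEX60DDU001038558) had 4 counts in 2 of the blastemas, and was at 0.592, 0.416, 0.481, 0.555 and 0.386 CPM in the juvenile limbs and 1.11 and 0.451 CPM in the aged limbs. Its pooled ratio of juvenile limbs to blastemas was 8.69 (interval 3.16 to 33.3).

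HES5.3 (AMEX60DD051577), a copy named after the Notch target HES5, lay on the opposite side from HES1.7. Its levels were 7.80, 8.31, 4.40, 7.83 and 5.08 CPM in the juvenile limbs, 0, 0.506, 1.42, 0.454 and 1.19 CPM in the blastemas, and 5.87 and 9.09 CPM in the aged limbs. The blastemas were far below both groups of limbs, and the fitted log2 fold change against juvenile limbs was -3.21 ± 0.60 (SE). The keratinocyte and Schwann cell marker sums were likewise lower in every blastema than in every juvenile limb. These markers came from the list of blastema genes, which largely fixed a difference. The part of these cell types in the levels of TBX1, the IRX genes and HES5.3 was not tested.

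**Figure D4:**
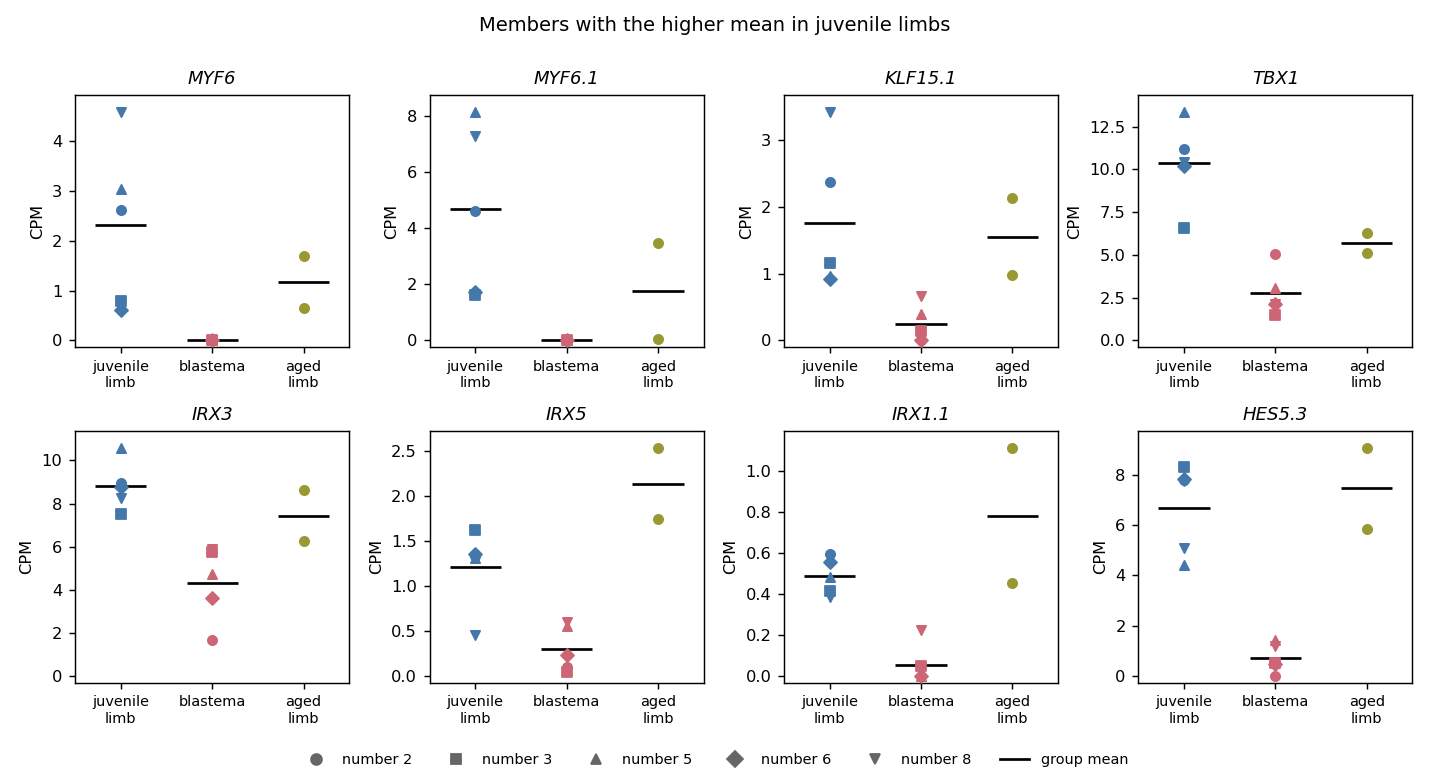
Level (CPM, linear axis) of the 8 genes with the higher mean in juvenile limbs, drawn as in the plot of the blastema side (points are libraries, bars group means). The blastemas lie below the juvenile limbs for each gene except IRX5, for which juvenile limb 8 is within their range. The aged limbs lie above the blastemas for each gene, by 1 count for MYF6.1 and within counting error for TBX1, IRX3, IRX1.1 and KLF15.1.

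Aged and juvenile limbs were compared with edgeR's quasi-likelihood F test, and p-values were adjusted over the 24316 genes tested by the method of Benjamini and Hochberg. Of the 14 genes, 11 passed the filter and 0 were called, where 0.0535% of the genes tested were called higher and 0.0494% lower. DESeq2 also called 0 of the 14, with 2 left without an adjusted p, where it called 0.11% of the genes it fitted higher and 0.383% lower. An unadjusted p under 0.05 was found for 3 of the 11, LHX2, MSX2 and TBX1, and for 7.48% of the genes tested. Both aged limbs lay outside the range of the juvenile limbs for 4 of the 14 genes, as was so for 12.4% of the genes tested. They lay above it for LHX2 and IRX5 and below it for MSX2 and TBX1. The nearest aged and juvenile limbs were at 1.11 and 0.925 CPM for LHX2 and 1.74 and 1.62 CPM for IRX5. For MSX2 they were at 2.58 and 3.16 CPM, and for TBX1 at 6.27 and 6.56 CPM. Each of these gaps was within counting error. With 2 aged animals the intervals are wide, and a change that missed the threshold may still be present.

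The level of LHX2 in the aged limbs, of which the higher was aged limb 2, gave a log2 fold change of 2.03 ± 0.83 (SE, n = 2 and 5, edgeR adjusted p = 0.646). Without aged limb 2 it was 1.40, and without juvenile limb 6 it was 2.53. MSX2 was lower in both aged limbs, with a log2 fold change of -1.08 ± 0.45 (edgeR adjusted p = 0.655), which was -1.54 without aged limb 2 and -0.71 without aged limb 1. TBX1 gave -0.84 ± 0.32 (edgeR adjusted p = 0.596). IRX5 gave 0.83 ± 0.55 (edgeR adjusted p = 0.809). None of these 4 differences passed the threshold.

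The MYF6 copies had log2 fold changes of -0.95 ± 0.84 for MYF6 and -1.35 ± 1.07 for MYF6.1 (SE, edgeR adjusted p = 0.877 and 0.855), and that of MYF6.1 was -0.37 without aged limb 2 and -5.997 without aged limb 1. The muscle marker sum was 9135 CPM in aged limb 1 and 1339 CPM in aged limb 2, the latter below all juvenile limbs. The remaining 5 genes that were tested, IRX1.1, TWIST1, HES5.3, KLF15.1 and IRX3, had log2 fold changes between -0.22 and 0.70 with adjusted p between 0.902 and 0.983. HES1.7, ZIC2 and ZIC5 did not pass the filter, and an exact two-sided permutation test of log2(CPM + 0.05) gave p = 0.381, 0.667 and 0.571, where 2 against 5 libraries cannot go below 0.0952.

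**Figure D5:**
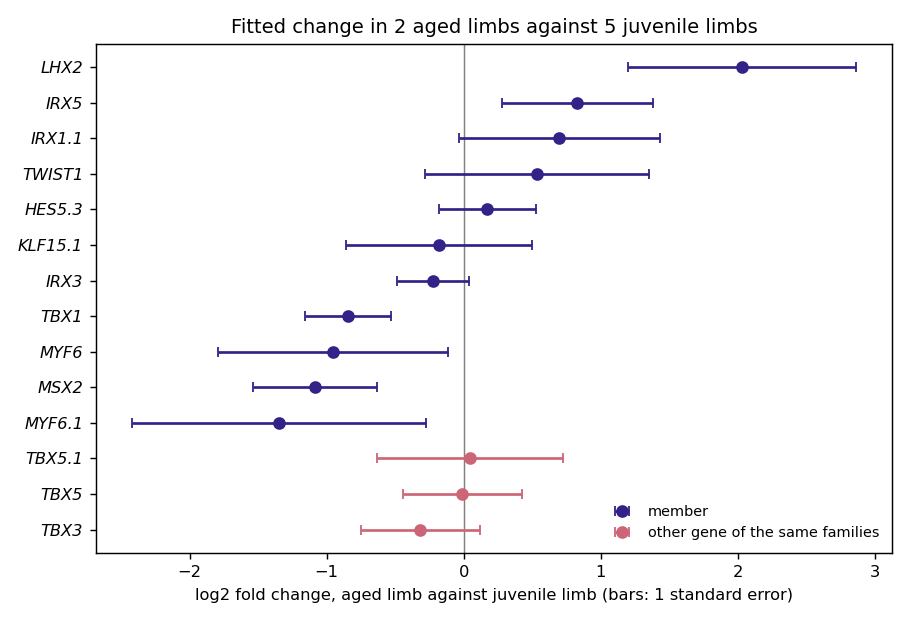
Fitted log2 fold change of aged against juvenile limbs for the 11 genes of the set and the 3 other family genes that passed the filter (points; bars are 1 SE; n = 2 aged and 5 juvenile limbs). LHX2 lies highest at 2.03 and MYF6.1 lowest at -1.35, and 0 of the genes drawn were called.

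Between blastemas and aged limbs, which share their blastemas with the contrast behind the list, values are a description as well. All 5 blastemas lay above both aged limbs for MSX2 and TWIST1, and below them for 8 genes, the whole limb side. Of the 22076 genes tested, 8.82% and 12.3% were separated in these directions. MYF6, MYF6.1 and IRX1.1, which are among the 8, were not among the genes tested. Some of the 8 separations were narrow. Aged limb 2 had 1 count of MYF6.1 against none in the blastemas, and 7 counts of IRX1.1 against 3 in blastema 8. TBX1 was at 5.091 CPM in aged limb 2 and 5.087 CPM in blastema 2, level within counting error. IRX3 was at 6.25 CPM in aged limb 2 and 5.87 CPM in blastema 8. KLF15.1 was at 0.978 CPM in aged limb 1 and 0.669 CPM in blastema 8. The gaps of IRX3, KLF15.1 and IRX1.1 were within counting error too. MSX2 had a log2 fold change of 3.81 ± 0.51 (SE) and TWIST1 one of 1.72 ± 0.83. LHX2, HES1.7, ZIC2 and ZIC5 overlapped, and the LHX2 log2 fold change of 0.57 ± 0.98 between blastemas and aged limbs was smaller than its SE. The order of the groups was thus blastema, juvenile limb and aged limb for MSX2, and blastema, aged limb and juvenile limb for the mean of LHX2, where the aged limbs lay inside the range of the blastemas.

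Other genes of the same families were named by a second table, which was held only in part. Genes on the list of blastema genes that gave the set were left out of them. That list also required a difference in another study, so absence from it made a call here less likely but did not exclude one. Their values between blastemas and juvenile limbs are a description too. Of 6 such genes, TBX5, TBX5.1 and TBX3 passed the filter and 0 were called between blastemas and juvenile limbs, against 7.45% of the genes tested in either direction. The choice of the genes made so low a count more likely. DESeq2 called 0 of the 6 as well, where it called 1.05% of the genes it fitted higher and 3.14% lower. Of the 3 that edgeR fitted, 0 had an unadjusted p under 0.05, against 24.1% of the genes tested. With 3 genes chosen in this way, such a count shows little. TBX3, a T-box gene of the limb bud margins, was at 4.05, 4.02, 2.89, 1.79 and 3.35 CPM in the juvenile limbs, 3.72, 1.89, 1.97, 2.88 and 1.86 CPM in the blastemas, and 2.09 and 3.03 CPM in the aged limbs. Its log2 fold change between blastemas and juvenile limbs was -0.39 ± 0.34 (SE), and the groups overlapped.

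TBX5 was at 3.50, 4.30, 4.81, 4.75 and 9.07 CPM and TBX5.1 at 0.494, 1.06, 2.27, 1.05 and 1.80 CPM in the juvenile limbs, so their blastemas lay on both sides of the limbs. The log2 fold changes were -0.15 ± 0.71 and 0.33 ± 0.72 (SE), and the sign of either turned when single libraries were left out. Without blastema 2 they were -1.02 and -0.41. The aged limbs, at 6.76 and 3.61 CPM of TBX5 and 1.91 and 0.773 CPM of TBX5.1, lay within the range of the juvenile limbs, and 0 of the 3 T-box genes were called there. The remaining 3 genes were too low to test. PAX8, known from thyroid and kidney, had 1, 23 and 2 counts in the blastemas, juvenile limbs and aged limbs, FOXN4 had 0, 2 and 0, and FOXN4.1 had no count.

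Genes around these factors were counted from lists set by name. Most were taken from the same list of blastema genes, so their direction and their calls there were largely fixed by that choice and are a description. The median log2 fold change of all 19961 genes tested was -0.02. Of these genes 1.86% were called higher and 5.6% lower, which is the background for each count of calls below. Of the 7 genes of the BMP and TGF-beta response, the pathway that MSX2 responds to, 6 were called higher, against 1.86% of all genes, and 0 lower, with a median of 1.32. All 7 came from the list of blastema genes, so this count is no finding about the pathway. ID3, an inhibitor of basic helix-loop-helix proteins, averaged 28.9 ± 6.03 CPM in juvenile limbs and 60.03 ± 7.78 CPM in blastemas (mean ± SD, n = 5 each). PMEPA1, a TGF-beta feedback inhibitor, went from 25.7 ± 10.1 to 61.0 ± 24.4 CPM, and BAMBI, a decoy receptor, from 6.07 ± 2.31 to 34.5 ± 5.77 CPM.

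Of the 13 Wnt pathway genes, 11 were tested, 6 were called higher, against 1.86% of all genes, and 0 lower, and their median was 1.64. WLS, which carries Wnt ligands to the cell surface, went from 22.0 ± 5.06 to 56.0 ± 24.7 CPM, the inhibitor APCDD1 from 5.55 ± 2.87 to 34.9 ± 18.5 CPM, and the ligand WNT5A from 5.27 ± 2.68 to 29.0 ± 17.9 CPM (mean ± SD, n = 5 each). The ligand WNT7B.1 and the signal transducer DVL1 had log2 fold changes of -1.82 ± 0.59 and -1.84 ± 0.72 (SE) and were not called, and RSPO1 and the receptor FZD5, both left out by the filter, had no count in any blastema. These 4 were named after their values were seen. Of 28 other transcription factors, 23 were tested, 7 were called higher and 11 lower, against 1.86% and 5.6% of all genes. The named ones were ID3, the vitamin D receptor VDR, which was called lower at 96.2 ± 13.6 CPM in juvenile limbs and 46.7 ± 20.3 CPM in blastemas, and the hypoxia factor EPAS1.1, which was not called at 61.0 ± 11.8 and 27.96 ± 14.7 CPM.

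All 12 muscle regulators, like most of these genes taken from the list of blastema genes, were called lower in blastemas, against 5.6% of all genes, and 5 of them had no count there. With those 5 at the floor of 3 counts, the median pooled level was at least 222-fold lower. KLHL41, a stabiliser of myofibrils, averaged 299 ± 159 CPM in juvenile limbs and 0.0888 ± 0.0814 CPM in blastemas, KLHL31.1 averaged 173 ± 98.9 and 0.0603 ± 0.0971 CPM, and the muscle LIM protein gene CSRP3 averaged 126.2 ± 68.95 and 0.0473 ± 0.106 CPM (mean ± SD, n = 5 each). Of the 5 genes of the fasting and glucocorticoid response of muscle, the response that KLF15 belongs to in mammals, 4 were tested and 3 were called lower, against 5.6% of all genes. FKBP5, which is induced by glucocorticoids in many tissues, went from 20.03 ± 10.8 to 7.27 ± 3.94 CPM and was not called. PDK4 went from 11.0 ± 8.53 to 2.03 ± 0.677 CPM and TRIM63 from 8.21 ± 4.99 to 0.0196 ± 0.0437 CPM, and both were called lower. The blastema mean of TRIM63 lies below the floor of 0.0421 CPM, and that of CSRP3 lies close to it. Both blastema means rest on very few counts.

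For the HES genes the corresponding list was the Notch pathway. Of its 6 genes, 4 were tested, with 1 called higher, against 1.86% of all genes, and 0 lower. That gene was MSI1, named here after its values were seen, and a call in the list stood in only 4 of 16 alternative settings. MSI1, an RNA-binding protein known to act on the Notch inhibitor Numb in mammals, averaged 1.93 ± 0.48 CPM in juvenile limbs and 4.37 ± 1.65 CPM in blastemas, and the Notch inhibitor RITA1 averaged 7.52 ± 0.372 and 5.55 ± 1.62 CPM and was not called (mean ± SD, n = 5 each). In the aged limbs 0 of the 63 genes of these 6 lists were called against juvenile limbs by edgeR or by DESeq2. An unadjusted p under 0.05 was found for 2 of the 59 that edgeR fitted, against 7.48% of all genes tested, and for 4 of the 63 by DESeq2, against 4% of all genes it fitted, and the lowest adjusted p was 0.646 and 0.307.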

How the data were processed

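RNA of 12 libraries, 5 blastemas, 5 juvenile limbs and 2 aged limbs, was depleted of ribosomal RNA and sequenced. The submitters' processing notes and the methods name Trimmomatic 0.39, STAR 2.7.9a with AmexG_v6.0-DD, and featureCounts with AmexT_v47. The authors deposited whole-number counts per gene without normalization, identical in the joint and the per-library files. Settings of featureCounts for strand and shared reads are not given in the sources used here, so overlapping genes and near-identical copies are uncertain. Tables of the authors' own comparisons served only to pair identifiers with names, and their fold changes were not used.

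Groups came from the sample labels. Comparisons were fitted on the libraries of 2 groups with edgeR 4.0.16 in R 4.3.3 (TMM, filterByExpr, quasi-likelihood test, Benjamini-Hochberg adjustment over all genes tested), and calls took the cut-offs of the study's methods, a log2 fold change of more than 1 in size and an adjusted p under 0.05. The study used DESeq2, which was run here as DESeq2 1.42.0 among the alternatives. The SE was obtained as the size of the log2 fold change over the root of the F statistic. CPM use TMM library sizes over all 12 libraries. A group without counts was set at a floor of 3 counts over the group. Pooled ratios carry 95% exact counting intervals, which cover counting error only, since the reads carry no molecular identifiers. Permutation tests used log2 CPM with an offset of 0.05. Python 3.11.15 with pandas 2.3.3 and scipy 1.17.1 gave these values, and the fits were tested on simulated data.

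Alternatives were DESeq2 size factors, no filter, a mean of at least 10 counts, DESeq2, edgeR on all 12 libraries, no fold threshold, the library number as a block, and leaving out each library.

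The set, the lists and the tests were chosen with earlier results of these data known. All genes of the set, all 6 other family genes (those absent from the list that gave the set) and the 3 genes with the highest mean CPM of each list were to be named. Some items of the Notch list are not reported here by name. In RefSeq's table of the axolotl genome, 12 of 13 names of the set were found and used for gene order only. Sequences are not reported here.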

Additional observations from a re-analysis of the deposited data

Results flagged for a closer look

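Among 26 groups of 5 libraries, 4 held a library whose gap to the next exceeded Dixon's 95% limit. Chance gives about 1 group in 20 for normally distributed values, a rate that does not hold for levels with zeros and single counts. The count of 4 therefore cannot be read against it. TWIST1 stood at 4.89 CPM in blastema 2, while the other 4 blastemas lay between 1.103 and 1.86 CPM. IRX1.1 stood at 0.223 CPM in blastema 8, against 0 to 0.0460 CPM in the others, which is a difference of few counts. IRX5 stood at 0.450 CPM in juvenile limb 8, below the other 4 at 1.31 to 1.62 CPM. ZIC5 stood at 0.0616 CPM, 1 count, in juvenile limb 6, with no count in the other 4, a pattern that this limit always flags.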

How the results depend on the processing

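Between blastemas and juvenile limbs 1488 of the 19961 genes tested were called. The counts were 3260 of 63474 when no filter was applied and 2636 of 62895 by DESeq2. They were 1099 to 1800 with single libraries left out. Of the genes of the set that passed the filter there, 8 had a log2 fold change above 1 in size, and 13 did with no filter, 14 with DESeq2 and 14 with edgeR on all 12 libraries, since more genes were then fitted. The genes of the set past both thresholds were 6, with 10 when no filter was applied, 12 by DESeq2 and 5 to 8 with single libraries left out. As the set was chosen on this contrast, its counts here are no finding about it. With the library number as a replicate block 1394 genes were called, 8 genes of the set were above 1 in size, 5 of them past both thresholds, and TWIST1 was the one lost. The block turned the sign of TBX5.1, to -0.10, and left 0 Notch genes called. Deviations from the group means correlated with a median r of 0.158 (0.0303 to 0.204) over 5 pairs of the same number. Over 20 pairs of different numbers the median was -0.0215, and 6 of 10 libraries correlated best with their own number. Libraries of the same number were thus somewhat more alike. The study's design reads as limb and blastema from the same animals, but the sources used here do not state what a number marks. The main fits were still left unpaired and thus ignore any pairing. For both comparisons with the aged group, no paired analysis was possible because none of its animals gave a blastema or a juvenile sample.

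Between aged and juvenile limbs 25 genes were called, with 897 when no filter was applied, 305 by DESeq2 and 0 to 9 with single libraries left out, and the lower end was reached without aged limb 1. The set had 0 calls in each alternative. None of the following log2 fold changes was called, and their signs turned when single libraries were left out. The ranges were -0.15 to 0.46 for HES5.3, -0.087 to 1.22 for IRX1.1, -0.47 to 0.017 for IRX3, -0.80 to 0.28 for KLF15.1, -0.53 to 0.41 for TBX5 and -0.75 to 0.58 for TBX5.1, and the sign of TBX5 also turned with no filter, to 0.044. Between blastemas and juvenile limbs they were -1.02 to 0.17 for TBX5 and -0.41 to 0.62 for TBX5.1. The cause of these changes was not tested. Low counts, such as 1 ZIC5 count over 5 juvenile limbs, limit the precision of the ratios, and 2 aged animals limit each comparison with them.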
